A study of Mus musculus with 8 samples.

Results

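The transcripts described here are 10 genes of the cellular response to low oxygen and of glycolysis, taken from 55385 genes counted in fetal mouse lung and chosen by symbol. They are Hif1a and Epas1, which encode the oxygen-regulated alpha subunits of the hypoxia-inducible factors HIF-1 and HIF-2, and 8 known targets of these factors, Slc2a1, Pgk1, Ldha, Hk2, Pdk1, Egln3, Ankrd37 and Bnip3. All 10 were found in the count tables, and all 10 passed the filter on low counts. Whole lungs of C57BL/6 mouse fetuses were collected at E18.5, 4 from controls and 4 after tracheal occlusion (TO), and their mRNA was sequenced. TO was made through the uterine wall by a ligature that closed the trachea together with 1 carotid artery and 1 jugular vein, so the TO lungs also came from fetuses with altered vessels of the neck. The dams received progesterone after the operation. What, if anything, was done to the control fetuses is not stated in the labels, and they name no modified gene. The 6 lungs of the main comparison were controls 1, 2 and 4 and TO 2, 3 and 4, the specimens shown in the study's own comparison. Control 3 and TO 1 are shown in every value and were added in other fits.

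When oxygen is plentiful, the prolyl hydroxylases (Egln1, Egln2 and Egln3) mark the HIF alpha subunits for destruction through the von Hippel-Lindau protein. When oxygen falls, the subunits persist, pair with Arnt and bind short DNA elements with the core letters ACGTG or GCGTG near genes for glucose uptake, glycolysis, mitochondrial turnover and vessel growth. HIF-1 is controlled mostly through the stability of its protein, so the Hif1a transcript is a poor gauge of the pathway and the target transcripts are the usual readout. The lung of the fetus develops in low oxygen, and HIF-2 is abundant in its endothelium and epithelium. These statements are background and not results of these libraries.

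Between 22822261 and 35002061 read pairs were counted on genes in 7 libraries and 270078 in TO 1, in which 3 pairs amount to 10.3 CPM. TO 1 therefore gives only rough levels, and its counting error is far above that of the others. CPM are read pairs scaled to a common library total with factors from the trimmed mean of M values (TMM). Values are in this unit unless another is named, and fold changes are log2 ratios of TO over control with the standard error (SE) of the fit. All samples carried lung markers, with Sftpc, the surfactant protein of alveolar type 2 cells, between 4419 and 12777 CPM. In whole tissue, fewer cells of a type and less RNA per cell cannot be told apart. Nothing in the labels says whether fetuses shared a dam, so p-values measure the spread between these lungs only.

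The 10 transcripts were present in every lung, and none was called as different between TO and control. With the 6 lungs, edgeR's quasi-likelihood test called 0 of the 10 genes at an adjusted p under 0.1, against 0% of the 21859 genes tested. The count was also 0 of 10 with DESeq2, which called 0.201% of all genes, and with the replicate number as a block, which called 1.0%. In these 6 lungs only numbers 2 and 4 have both groups, so the block rests on 2 pairs with 1 residual degree of freedom. At an unadjusted p under 0.05, 1 of the 10 was higher in TO, against 3.07% of all genes, and 0 were lower, against 2.07%. The groups of 3 overlapped for all 10 genes, while over all genes TO lay wholly above control in 5.06% and wholly below in 5.82%. The estimate was above 0 for 8 genes and below 0 for 2, with a median of 0.22 against -0.0045 over all genes tested. The 95% intervals of the fold changes reached down to -0.47 (Pgk1) and up to 1.14 (Bnip3).

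**Figure D1:**
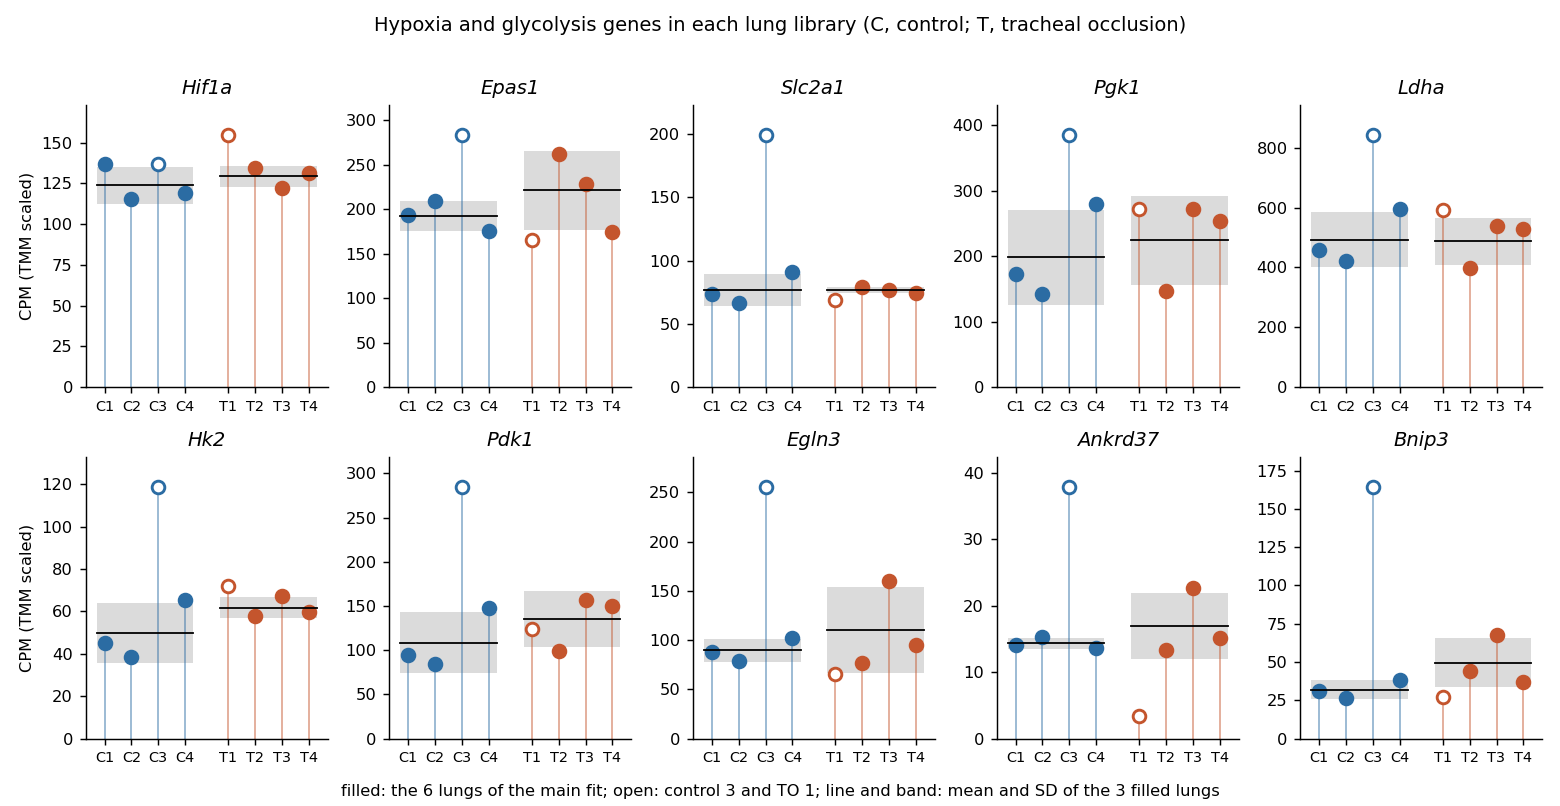
TMM-scaled CPM (y axis, from 0) of each gene in the 4 control (C) and 4 TO (T) libraries, with filled points for the 6 lungs of the main comparison, open points for control 3 and TO 1, and the mean and SD of each group of 3 filled points as line and band. The open point of control 3 stands above every other deep library for 9 of the genes, by the most for Bnip3 (164 CPM), and is level with control 1 for Hif1a (137 CPM in both).

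The alpha subunits overlapped between the groups. Hif1a (chr12:73901375-73947530, GRCm38, plus strand) was at 137, 115, 137 and 119 CPM in controls 1 to 4 and at 155, 134, 122 and 132 CPM in TO 1 to 4. All values lay between 115 and 155 CPM, and the 3 controls compared averaged 124 ± 11.6 CPM and the 3 TO lungs 129 ± 6.31 CPM (SD). Its log2 fold change was 0.06 (SE 0.11). Epas1 (chr17:86753700-86833410, plus strand) was at 193, 209, 283 and 175 CPM in controls 1 to 4 and at 165, 261, 228 and 174 CPM in TO 1 to 4. Control 3 and TO 2 were the highest lungs, and the lowest deep TO lung was under all controls. Its log2 fold change was 0.20 (SE 0.15).

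Slc2a1 (chr4:119108711-119137983, plus strand) encodes the glucose transporter GLUT1. It was at 73.4, 66.3, 199 and 91.0 CPM in controls 1 to 4 and at 68.7, 79.0, 77.0 and 74.5 CPM in TO 1 to 4. TO lungs were close together, and control 3 was 2.59 times the mean of the other controls. The log2 fold change was -0.0038 (SE 0.13), with a 95% interval from -0.31 to 0.30, the smallest difference of the 10 genes.

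Hk2, which phosphorylates glucose in the first step of glycolysis (chr6:82725025-82774454, minus strand), was at 45, 38.6, 119 and 65.6 CPM in the controls and at 72.1, 58.0, 67.3 and 59.7 CPM in TO. TO 2 and TO 4 lay between control 1 and control 4, and TO 1 and TO 3 passed control 4. The 3 controls compared averaged 49.7 ± 14.1 CPM and the 3 TO lungs 61.7 ± 4.93 CPM (SD), with a log2 fold change of 0.31 (SE 0.19).

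Pgk1, phosphoglycerate kinase (chrX:106187100-106203699, plus strand), was at 172, 142, 384 and 280 CPM in the controls and at 271, 147, 272 and 254 CPM in TO. Controls 1 and 2 and TO 2 formed the low end and all other libraries the high end, so the spread within each group (SD 72.6 and 67.5 CPM, n = 3) was above the difference of the means. The log2 fold change was 0.17 (SE 0.28). Ldha, lactate dehydrogenase A (chr7:46841475-46855627, plus strand), was at 460, 422, 841 and 597 CPM in the controls and at 591, 397, 539 and 527 CPM in TO. The same libraries were lowest, and the log2 fold change was -0.02 (SE 0.17). Both genes have near-identical processed copies in the mouse genome, and pairs that fit several places were not counted, so their levels are less certain than those of the other genes.

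Pdk1 (chr2:71873224-71903858, plus strand) encodes a kinase that inhibits pyruvate dehydrogenase and so holds back the use of pyruvate in mitochondria. It was at 94.1, 84.1, 285 and 148 CPM in the controls and at 124, 99.4, 157 and 150 CPM in TO. Its order of libraries was like that of Pgk1, and its log2 fold change was 0.31 (SE 0.24).

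Egln3 (chr12:54178981-54203860, minus strand), a prolyl hydroxylase that is itself a HIF target, was at 88.1, 78.4, 255 and 102 CPM in the controls and at 65.2, 76.4, 160 and 94.7 CPM in TO. Control 3 and TO 3 were the highest of their groups, 2.85 times the mean of the other controls and 1.86 times the mean of TO 2 and TO 4. The log2 fold change in the 6 lungs was 0.29 (SE 0.24) and lay on the other side of 0, at -0.05, without TO 3. Ankrd37 (chr8:45996902-46005707, minus strand), which encodes a small ankyrin repeat protein, was at 14.1, 15.3, 37.9 and 13.6 CPM in the controls and at 13.3, 22.6 and 15.1 CPM in TO 2 to 4, and TO 1 held 1 read pair of it. Its first exons overlap Lrp2bp and its last exon Ufsp2, both on the other strand, and without strand the pairs of the overlap cannot be assigned. Control 3 was 2.64 times the mean of the other controls, which lay between 13.6 and 15.3 CPM, and TO 3 was again the highest TO lung. Its log2 fold change was 0.24 (SE 0.22), and it was 7.3e-06 without TO 3.

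Bnip3 (chr7:138890836-138909519, minus strand) directs the removal of mitochondria and had the largest difference of the 10 genes. It was at 30.9, 26.8, 164 and 38.6 CPM in the controls and at 27.5, 44.0, 67.6 and 36.8 CPM in TO. The 3 controls compared averaged 32.1 ± 6.00 CPM and the 3 TO lungs 49.5 ± 16.1 CPM (SD), and TO 4 lay below control 4. The log2 fold change was 0.62 (SE 0.23) with an unadjusted p of 0.0244 and an adjusted p of 0.907 by edgeR's quasi-likelihood test. TO 3 carried much of it, since the log2 fold change was 0.35 without that lung. Over the alternative fits, the lowest adjusted p among the 10 genes ran from 0.209 to 1, by edgeR or DESeq2.

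Per kilobase of exon, Ldha had the highest level over the 6 lungs, at 148 CPM per kb, and Pgk1 followed at 94.1 CPM per kb. Egln3 (37.5 CPM per kb) and Epas1 (37.0) were next and differed by less than the spread between lungs, as did Slc2a1 (21.9) and Hif1a (21.5). Bnip3 (18), Pdk1 (15.7), Ankrd37 (10.2) and Hk2 (9.33 CPM per kb) had lower levels. In control 3 Bnip3 reached 72.5 CPM per kb and passed Slc2a1 (56.8), Epas1 (50.6) and Hif1a (23.3).

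Control 3 was the library in which these genes stood apart. It held the highest CPM of the 7 deep libraries for 10 of the 10 genes, where 21.3% of 22539 genes were highest in control 3 and 22.4% lowest. For Hif1a control 3 and control 1 were both at 137 CPM, so the first place there is no difference at this depth. The 8 target genes were 1.71 to 5.12 times the mean of controls 1, 2 and 4. Of the 10 genes, 4 were at least 2-fold above each other control, namely Slc2a1, Egln3, Ankrd37 and Bnip3, against 4.81% of all genes. By Dixon's criterion, the gap between the extreme library and its nearest neighbour as a share of the range of the 4 controls, 1 of the 10 (Ankrd37) lay apart on the high side, against 1.97% of all genes. The median of the log2 difference between control 3 and the other controls was 1.34 for the 10 genes and -0.03 for all genes tested. Control 3 is a single library, so no test of this pattern between groups can be made. The 10 genes were also chosen with earlier results of these data known, so the shares are descriptions only.

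The core letters were looked for in promoter windows of RefSeq (GRCm38.p6), each from 250 bases before to 50 bases after a gene's start, on both strands. Windows were found for 9 of the 10 genes, 11 in all because Ldha and Pdk1 have 2 each. ACGTG, or CACGT on the other strand, occurred in 8 of the 11 windows (72.7%), in 37 of 86 windows of the other pathway genes described below (43.0%), and in 6447 of all 32851 windows (19.6%). GCGTG, or CACGC, occurred in 6 of the 11, 48 of the 86 (55.8%) and 10639 of all windows (32.4%). Either core was found in 10 of the 11 windows and in 43.8% of all windows. The palindrome CACGTG holds ACGTG on both strands, and such matches overlap. A match is a description of the letters and not evidence that a factor was bound. The 4 genes with the largest ratio of control 3 to the other controls are shown, since they carry the pattern of that library most clearly. For each, the stretch of 100 bases upstream of the RefSeq start with the most ACGTG matches, and then the most GCGTG matches, is printed in the direction of transcription, with both cores in capitals. No exon of GENCODE M21 lies in these stretches, and that of Ankrd37 falls in introns of a longer Ankrd37 transcript and of Lrp2bp.
Bnip3, chr7:138909524-138909623, minus strand: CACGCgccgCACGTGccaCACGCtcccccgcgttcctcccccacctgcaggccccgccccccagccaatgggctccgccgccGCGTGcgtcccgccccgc
Egln3, chr12:54204004-54204103, minus strand: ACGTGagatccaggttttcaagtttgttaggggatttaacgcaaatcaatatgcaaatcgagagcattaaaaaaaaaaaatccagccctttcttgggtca
Ankrd37, chr8:45999992-46000091, minus strand: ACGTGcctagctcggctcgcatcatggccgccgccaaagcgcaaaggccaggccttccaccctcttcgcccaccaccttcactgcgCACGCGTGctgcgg
Pdk1, chr2:71873124-71873223, plus strand: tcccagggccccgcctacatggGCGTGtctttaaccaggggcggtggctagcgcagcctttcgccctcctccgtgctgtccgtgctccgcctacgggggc
In the Bnip3 stretch 2 overlapping ACGTG and 3 GCGTG matches were found, and in the Pdk1 stretch a single GCGTG and no ACGTG. Slc2a1, which was next in the ratio, had an ACGTG match 36 bases before its start. The Hif1a window held 3 ACGTG matches, and Hif1a was at the level of control 1 in control 3.

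The direction of the TO comparison depended on that library. With control 3 added and TO 1 left out, the log2 fold change was above 0 for 2 genes (Hif1a and Epas1) and below 0 for the 8 targets, with a median of -0.21, and in all 8 lungs it was above 0 for Hif1a alone. Bnip3 went from 0.62 (SE 0.23) in 6 lungs to -0.40 (SE 0.59) in 7, and Slc2a1 from -0.0038 (SE 0.13) to -0.49 (SE 0.34). With TO 1 added and control 3 left out, 9 of 10 were above 0 and Bnip3 was at 0.56 (SE 0.24). None of these fits called any of the 10 genes, and none called any gene at all (0 of 22539, 22545 and 21867 tested, in that order).

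**Figure D2:**
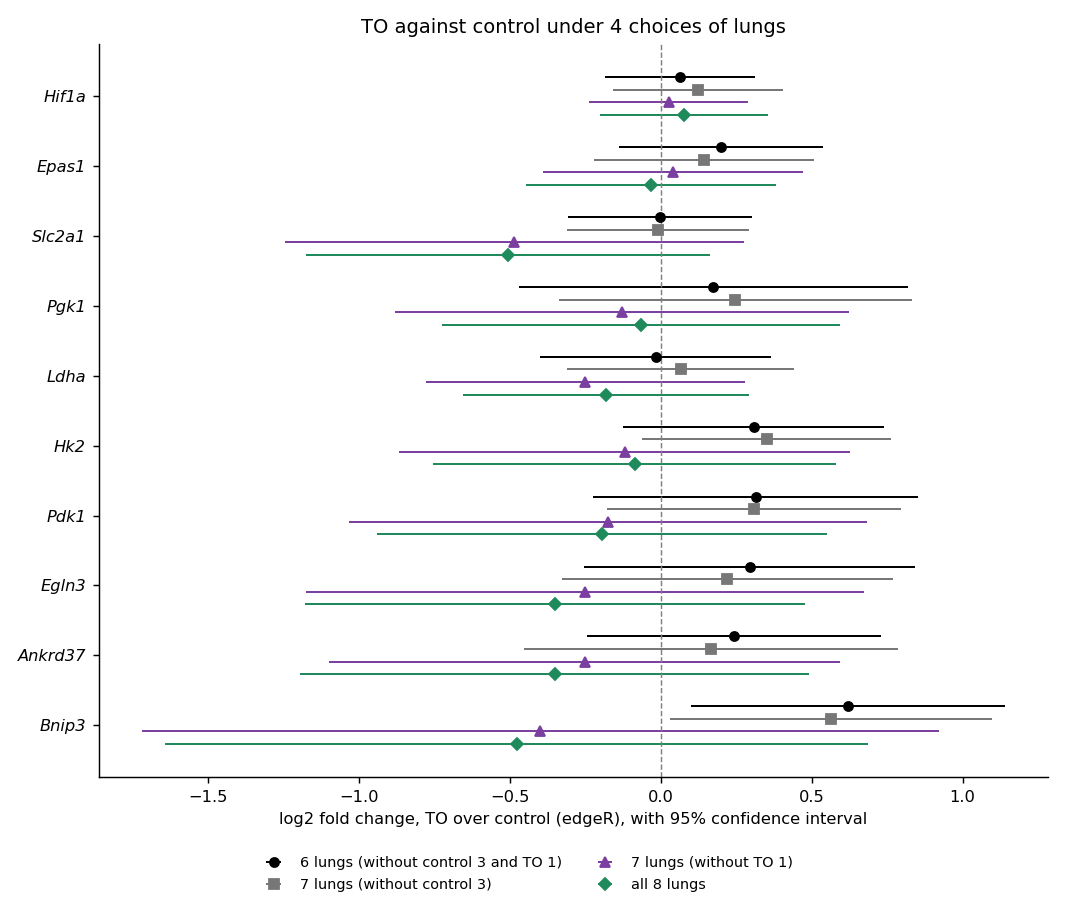
Log2 fold change of TO over control from edgeR with its 95% confidence interval (x axis) for each gene under 4 choices of lungs. Both fits with control 3 place the 8 targets left of 0, and both fits without it place most of them right of 0, as for Bnip3 at 0.62 in 6 lungs and -0.48 in all 8, with intervals that overlap for every gene.

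Lungs with the same replicate number were also compared as pairs, since they resembled each other over all genes. In pair 2, 7 of the 10 genes were higher in TO, against 47.9% of all genes, with Bnip3 at 1.65 times and Hk2 at 1.5 times control 2. In pair 3, 0 of 10 were higher in TO, and TO 3 held 0.39 times the Slc2a1 and 0.41 times the Bnip3 of control 3, while 52.8% of all genes were higher in TO 3. In pair 4, 3 of 10 were higher, against 48.7% of all genes, and the ratios of all 10 genes ran from 0.82 (Slc2a1) to 1.11. In pair 1, which rests on the shallow TO 1 library, 5 of 10 were higher, against 30.4% of all genes. The pairs thus did not share a direction, and only pair 3 had all genes on one side. With the replicate number as a block in the 6 lungs, 5 genes were above 0 and 5 below, with Bnip3 at 0.33.

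TO 3 resembled control 3 in part. It was the highest of the 3 deep TO lungs for 7 of the 10 genes, all of them targets other than Slc2a1. The same count over all genes was not made. Over 9335 genes, the lungs numbered 3 also deviated together more than those of any other number (r = 0.489). Relative to the mean of TO 2 and TO 4, TO 3 stood at 1.86 times for Egln3, 1.67 times for Bnip3 and 1.6 times for Ankrd37. It stood at 1.0 times for Slc2a1 and 0.92 times for Hif1a. The specimen names of control 3 and TO 3 end in the same digits (3604), those of control 2 and TO 2 in 3573, and those of the other 4 lungs in 3482. The labels do not state what the digits mean. With the digits as a block in 7 lungs, 1 of the 10 genes was above 0, against 49.5% of all genes. None of the 10 was called there, and 1 of all 22539 genes was.

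Other genes of the pathway were described by 5 lists, 72 genes beyond the 10, of which 71 were tested. The lists were written from textbook roles, but with earlier results of these data known. None of the 71 was called in the 6 lungs by edgeR or DESeq2. At an unadjusted p under 0.05, 5 of the 71 were higher in TO and 0 lower, against 3.07% and 2.07% of all genes. Of the estimates, 53 were above 0 and 18 below, with a median of 0.14, while 49.3% of all genes were above 0. In control 3, 44 of the 71 were the highest of the 7 deep libraries and 4 the lowest, and 10 were at least 2-fold above each other control. With control 3 added, 29 of the 71 estimates were above 0 and 42 below, against 48.0% above 0 over all genes tested there. Gene by gene, 27 of the 71 went from above to below 0, 3 went the other way and the others kept their sign, and the median of the switches stayed above 0 at 0.042.

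Among the 11 HIF subunits and oxygen sensors, which include Hif1a, Epas1 and Egln3, the median log2 fold change was 0.06 and 1 gene was under an unadjusted p of 0.05. That gene, Cited2, encodes a competitor of HIF for its coactivators and was at 79.3, 96.3, 128 and 75.3 CPM in the controls and at 34.3, 132, 112 and 85.1 CPM in TO, a log2 fold change of 0.39 (SE 0.17). Hif3a, a HIF alpha subunit that is itself induced in hypoxia, stood at 469 to 530 CPM in the 6 lungs compared and at 715 CPM in control 3. Arnt, the partner of the alpha subunits, was within 125 to 137 CPM in those 6 lungs and at 161 CPM in control 3. Egln1 was at 218 CPM in control 3 and at 99.6 to 142 CPM in the other libraries, whereas Egln2 was lowest there, at 66.4 CPM.

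The 8 glucose and lactate transporters had a median of 0.21. Bsg, the chaperone of lactate transporters, was at 1629 CPM in control 3 and at 673 to 1091 CPM elsewhere, and Slc16a1 (MCT1) was at 101 CPM in control 3 and 42.4 to 74.9 CPM in the other deep libraries. Slc16a7 (MCT2) had the smallest p of the list. It was at 12.3, 13.5, 15.8 and 16.5 CPM in the controls and at 10.3, 23.6, 19.0 and 18 CPM in TO, and its 3 deep TO lungs lay above every control, with a log2 fold change of 0.52 (SE 0.18, unadjusted p = 0.0204, adjusted p = 0.907 by edgeR).

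The 22 glycolytic enzymes had a median of 0.14 and 0 genes under an unadjusted p of 0.05, 14 above 0 and 8 below. For Eno1, an enolase, the 3 deep TO lungs lay below every control, with a log2 fold change of -0.24 (SE 0.12). In the 6 lungs, 0 of the 22 had TO wholly above control. Gapdh was at 921, 932, 1418 and 1106 CPM in the controls and at 1487, 806, 959 and 1110 CPM in TO, with the same limit from processed copies as for Ldha, and Pkm stood in control 3 at 1.08 times the other controls. Pgam2, the muscle form of phosphoglycerate mutase, had the smallest p of the list (0.0705, edgeR) and a log2 fold change of 0.83 (SE 0.40). It was at 13.4 and 13.5 CPM in controls 1 and 2, at 53.7 and 41.3 CPM in controls 3 and 4, and at 36.2 to 61.8 CPM in TO. That order followed the cardiac markers given below. Aldoa, chosen after its values were seen, was at 1032 CPM in control 3, 3.04 times the other controls.

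The 12 genes that switch glycolysis and pyruvate use had a median of 0.21. Pdk4, a second pyruvate dehydrogenase kinase, had the smallest p (0.0556, edgeR) and was at 16.2, 12, 58.6 and 29.5 CPM in the controls and at 27.5, 22.8, 44.9 and 30.4 CPM in TO. Pdha1 and Pdhb, which encode the first component of pyruvate dehydrogenase, were at 1.43 and 1.26 times the other controls in control 3. Pfkfb4, chosen after its values were seen, ran the other way and was lowest in control 3, at 12.9 CPM against 22.5 to 31.6 CPM in the other controls.

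The list of 30 other HIF target genes holds Egln3, Ankrd37 and Bnip3, and 29 of its genes were tested since Epo was near 0. Its median was 0.18, with 4 genes higher in TO at an unadjusted p under 0.05, among them Bnip3, Mxi1 and Bhlhe40, and 0 lower. Mxi1, a repressor of Myc, had the smallest p, with 43.4, 51.4, 119 and 53.5 CPM in the controls and 48.1, 66.3, 68.4 and 60.4 CPM in TO, a log2 fold change of 0.39 (SE 0.12, unadjusted p = 0.0110, adjusted p = 0.907 by edgeR). Control 3 stood above all TO lungs in this gene, and with it in the fit the log2 fold change was -0.04. Lox, which cross-links collagen, was at 2208 CPM in control 3 and at 752 to 1289 CPM in the other deep libraries. Bnip3l, the paralog of Bnip3, was at 384 CPM in control 3 and 234 to 240 CPM in the other controls, and Vegfa, the vessel growth factor, was highest in control 3 (976 CPM) and TO 3 (1021 CPM) and at 391 to 726 CPM in the other deep libraries.

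**Figure D3:**
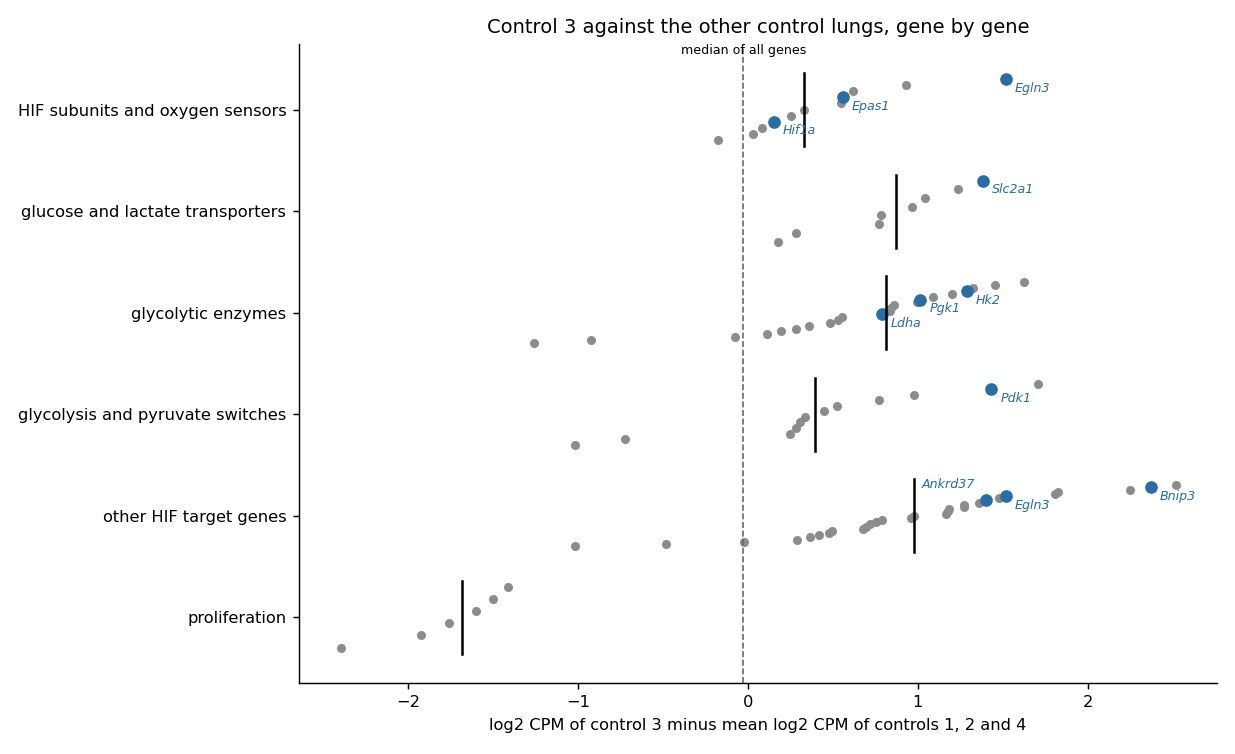
Log2 CPM of control 3 minus the mean log2 CPM of controls 1, 2 and 4 (x axis) for each tested gene of 5 pathway lists and the proliferation markers, with the 10 genes in blue and labelled, a black bar at each list's median and a dashed line at the median of all genes (-0.03). Bnip3 lies at 2.37 and Hif1a at 0.15, and the proliferation markers lie at -1.41 or lower.

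Other transcripts moved with control 3. The 6 proliferation markers were low in control 3 and TO 3, with Mki67 at 180 CPM and 131 CPM there and at 286 to 644 CPM in the other libraries. Their mean log2 CPM was 5.56 in control 3, 5.64 in TO 3 and 6.72 to 7.61 in the rest, and the summed level of the list was 402 CPM and 388 CPM against 817 to 1545 CPM. Of the 8 erythroid markers, 5 were highest in control 3, including Slc4a1 (96.4 CPM against 12.5 to 53.3 CPM in the other deep libraries), and their summed level was 5088 CPM in control 3 and 2990 to 4875 CPM in the other deep libraries. The 6 cardiac muscle markers summed to 641 and 408 CPM in controls 1 and 2 and to 2197 to 5291 CPM in all other libraries, so they were high in control 3 but also in control 4 and TO. Skeletal muscle markers summed to 170 CPM in control 3, within the range of the other deep libraries (14.9 to 288 CPM), and to 2544 CPM in TO 1. The alveolar type 1 markers were highest in control 3 for 3 of 6 genes and the endothelial ones for 4 of 6, with the other 2 endothelial markers lowest there. Of the remaining lists, 0 of 6 alveolar type 2, 0 of 4 airway, 1 of 6 fibroblast and 0 granulocyte and macrophage markers were highest there, with Ly6g at 0 in all libraries. In the deep libraries the summed level of the granulocyte and macrophage markers also moved with TO. It was 155 to 226 CPM in the 3 controls compared, 265 CPM in control 3 and 298 to 371 CPM in TO 2 to 4. In the shallow TO 1 it was 213 CPM, within the range of the controls. With the 6 lungs, 5 of the 5 tested were higher in TO at an unadjusted p under 0.05 (edgeR), against 3.07% of all genes, with 0 called. The share of counts on mitochondrial genes was 1.11% in control 3, the lowest, and 1.22% to 2.33% elsewhere. The part of these differences in the levels of the 10 genes was not tested.

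**Figure D4:**
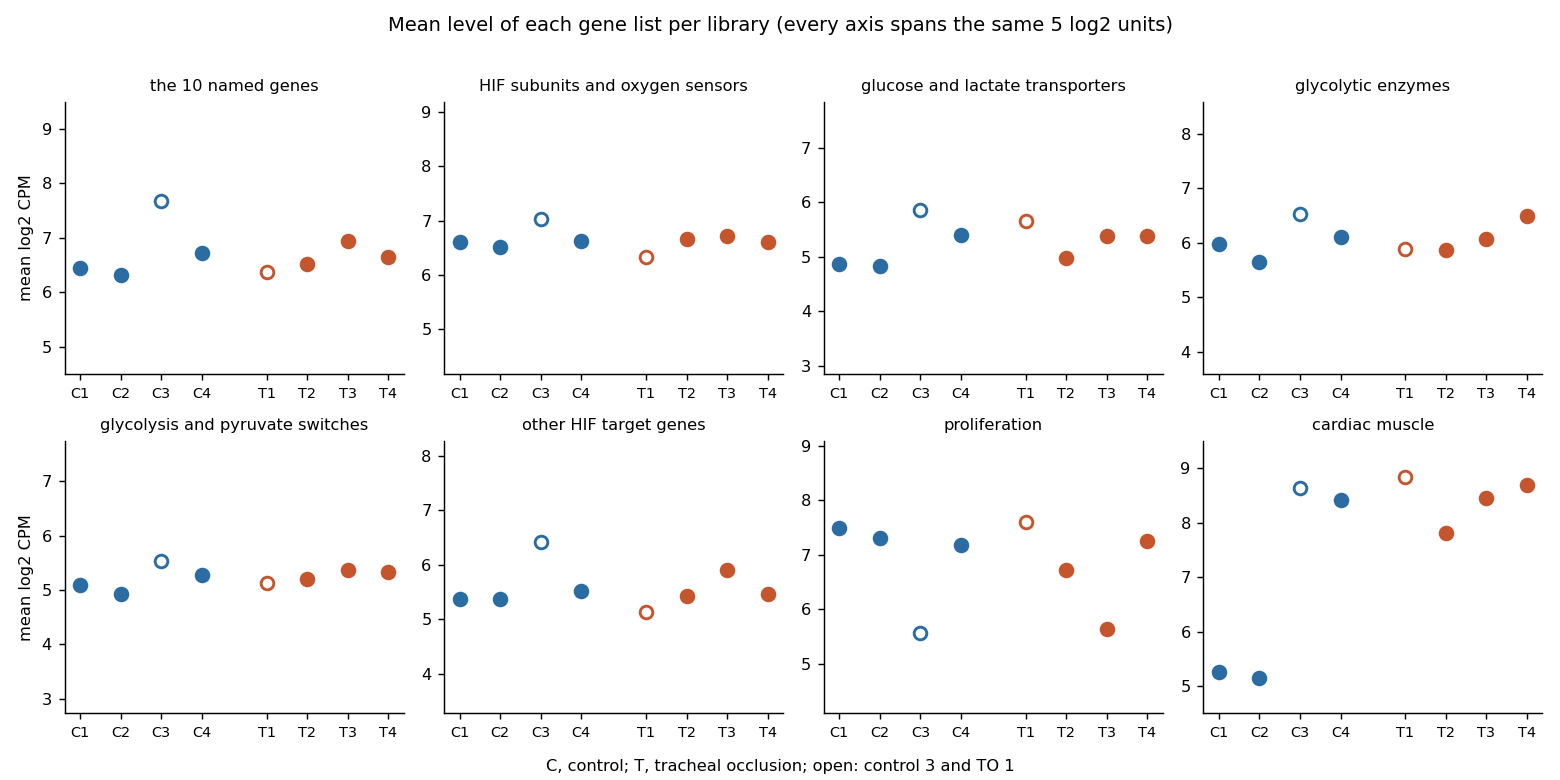
Mean log2 CPM of the 10 genes, 5 pathway lists and 2 marker lists in each library (C, control; T, TO; open points for control 3 and TO 1), with all y axes spanning the same range. Control 3 is the highest library for the 10 genes (7.68) and the other HIF target genes (6.41) and the lowest for the proliferation markers (5.56).

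The genes whose levels ran closest to the mean of the 8 targets over the 7 deep libraries, among 10641 genes outside the lists with a mean of at least 10 CPM, were Spidr, Slc4a4, Pnpla7, Syne1 and Rora. Their root mean square difference from the centred mean was 0.09 to 0.14 on the log2 scale. Spidr was at 27.2, 26.6, 68.1 and 32.4 CPM in the controls and at 20.6, 26.2, 43.1 and 32.4 CPM in TO. Slc4a4, a bicarbonate transporter, was highest in control 3 (91.0 CPM) and next in TO 3 (51.5 CPM). The named genes were picked because they followed the mean of the 8 targets. Their order of libraries therefore largely follows from that choice and is not a separate observation. The centred mean of the 8 targets itself was 1.1 in control 3, 0.24 in TO 3, 0.0027 in control 4, -0.09 in TO 4, -0.34 in TO 2, -0.38 in control 1 and -0.53 in control 2. Without control 3 the libraries therefore spanned less than 1 log2 unit. TO 3 was then highest and controls 1 and 2 lowest, while control 4 lay above TO 4 and TO 2.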

How the data were processed

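The authors aligned 150-bp read pairs of NexteraXT libraries to GRCm38 (mm10) with STAR, and deposited the raw count of pairs on each gene with no scaling or filter. The versions and the annotation are not given in the sources used here. Column 2, which adds both strands, was used, so overlapping and antisense genes cannot be told apart. Pairs on several places were not counted. Of 55385 gene IDs, 54487 are identical to those of GENCODE M21, and 55144 had a symbol. Aldoa has several IDs, and the one with most reads was used.

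A gene was kept when 3 of the fitted libraries held 5 reads or more. TO and control were compared by edgeR 4.0.16 (R 4.3.3), with TMM factors and its quasi-likelihood test. P-values were adjusted by Benjamini-Hochberg over every kept gene and called under 0.1. The script was tested on simulated data. DESeq2 1.42.0, other filters, other sets of lungs and blocks were alternatives. CPM per library used TMM factors of all 8 libraries, and log2 CPM a prior count of 2. Promoter windows were searched in Python 3.11.15.

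Lungs with the same number deviated together from their group means (r = 0.207, 0.340, 0.489 and 0.339 for numbers 1 to 4, across 9335 genes), and each control resembled most the TO lung of its own number. The numbers come from the titles and go only in part with the specimen digits, since numbers 1 and 4 share 3482. Intervals cover the spread between lungs, and counts of TO 1 carry counting error on top.

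The 10 genes, the pathway lists and the marker lists were chosen with earlier results of these data known. From each pathway list the 3 genes with the highest mean CPM and the one with the smallest p are named. Egln1, Egln2, Aldoa, Eno1, Pfkfb4 and Bhlhe40 were added after their values were seen. Single values of some list members are not reported here.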

Additional observations from a re-analysis of the deposited data

Results flagged for a closer look

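Of 62 groups of 4 lungs examined over 31 values, 5 had a library whose gap to its nearest neighbour, as a share of the group's range in log2 CPM, passed Dixon's limit for 4 values, and chance alone gives about 1 in 20 groups. In 4 of the 5 that library was control 3, on the high side. The share was 0.885 for Ankrd37 (37.9 CPM in control 3), 0.889 for Lox (2208 CPM), 0.95 for Bnip3l (384 CPM), and 0.847 for the mean log2 CPM of the other HIF target genes (6.41). These 4 are not independent, since they come from the same library and Ankrd37, Lox and Bnip3l stand in that list. The fifth was Pgk1 in the TO group, where TO 2 lay low (146.7 CPM) with a share of 0.889. Bnip3, although 5.12 times higher in control 3, did not pass the limit.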

How the results depend on the processing

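None of the 10 genes was called under any alternative fit, whereas 7 of them lay below 0 in every fit that took in control 3, of which 5 (Bnip3, Ankrd37, Egln3, Pdk1 and Pgk1) were above 0 in the 6 lungs and 2 (Slc2a1 and Ldha) were below 0 there too. Those fits were, in order, all 8 lungs, 7 lungs without TO 1, 8 lungs with a replicate block, 7 lungs with the specimen digits as a block, and 8 lungs with those digits. For Bnip3 the log2 fold change, 0.62 in the 6 lungs, was -0.48, -0.40, -0.21, -0.13 and -0.15 there. Ankrd37 was at -0.35, -0.25, -0.35, -0.23 and -0.28, and Egln3 at -0.35, -0.25, -0.30, -0.22 and -0.26. Pdk1 was at -0.20, -0.18, -0.088, -0.052 and -0.058, and Pgk1 at -0.066, -0.13, -0.015, -0.067 and -0.019. Hk2 was at -0.086, -0.12, -0.0019 and -0.024 in the first 4 fits, and Epas1 at -0.033 in all 8 lungs and -0.043, -0.029 and -0.047 in the last 3. The median of the 10 genes was -0.19, -0.21, -0.12, -0.099 and -0.10, that of the HIF subunits and sensors -0.033, -0.0064, -0.039, -0.029 and -0.036, and that of the other HIF targets -0.19, -0.15, -0.17, -0.15 and -0.15. The switches had medians of 0.042 in 7 lungs and 0.070 with the digits. The cause was not tested.

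With a replicate block in the 6 lungs, 219 of all genes were called in place of 0, and Pgk1 was at -0.043, Egln3 at -0.069 and Ankrd37 at -0.021. That fit has 2 pairs and 1 residual degree of freedom. The block called 3 genes in 8 lungs and changed no call among the 10. The digits called 1 gene in 7 lungs, DESeq2 44, and a test of every gene with a read 40. Slc2a1, at -0.0038 in the main comparison, was at 0.0088 with DESeq2, 0.0086 with its size factors in edgeR and 0.0062 with 5 reads required in each library. Ldha was at 0.065 in 7 lungs without control 3, a fit added after the data were seen.

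At an unadjusted p under 0.05, the main comparison held 1 of the 10 genes, 1 HIF subunit or sensor, 1 transporter, 0 glycolytic enzymes, 0 switches and 4 other targets. Each fit with control 3 held 0 of the 10 genes and 0 HIF subunits or sensors, as did the replicate block in 6 lungs for the 10 genes and 7 lungs without control 3 for the subunits. Over all of these fits the counts ran from 0 to 2 for transporters, 0 to 6 for glycolytic enzymes (6 with the replicate block in 6 lungs, 5 with every gene that had a read, 4 without control 3), 0 to 2 for switches and 0 to 6 for other targets. Over all genes, 5.14% were under that p in the main comparison, 2.0% to 5.11% in the fits with control 3, and 2.0% to 6.11% over all of these fits.

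Leaving out 1 of the 6 lungs at a time, the number of all genes called ran from 0 to 144, with 52 without control 4 and 144 without TO 4. Estimates ran from 0.020 to 0.15 for Hif1a, 0.064 to 0.35 for Epas1, -0.095 to 0.14 for Slc2a1, -0.012 to 0.51 for Pgk1 and -0.11 to 0.14 for Ldha. It ran from 0.16 to 0.56 for Hk2, 0.16 to 0.60 for Pdk1, -0.052 to 0.50 for Egln3, 7.3e-06 to 0.39 for Ankrd37 and 0.35 to 0.80 for Bnip3. Pgk1 was below 0 without control 2, Egln3 without TO 3, and Ldha was above 0 without control 4 or TO 2, and Slc2a1 without control 4, TO 3 or TO 4. The medians ran from 0.074 to 0.37 for the 10 genes, 0.020 to 0.15 for HIF subunits and sensors, 0.060 to 0.47 for transporters, 0.020 to 0.23 for enzymes, 0.11 to 0.23 for switches and 0.010 to 0.28 for other targets. The counts at an unadjusted p under 0.05 ran from 0 to 3, 0 to 3, 0 to 2, 0 to 7, 0 to 2 and 1 to 10 for the same lists, while the share of all genes ran from 2.76% to 10.7%, the latter without TO 4. Bnip3 was not below that p without control 1, control 2 or TO 3.

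Depth limits TO 1, in which 3 read pairs amount to 10.3 CPM and Ankrd37 had 1 pair.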
